A study of Mus musculus with 6 samples.

Results

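The 9 genes described here encode enzymes of the methionine cycle and of the route from it to cysteine and taurine in mouse liver: Mat1a, Mat2a, Gnmt, Bhmt, Ahcy, Cbs, Cth, Cdo1 and Csad. They were chosen by gene symbol from the 55385 genes of the deposited table, and each matched 1 entry. All 9 were among the 11677 genes tested, which had a mean of at least 0.5 FPKM (fragments per kilobase of a gene model, scaled to the library's counted fragments) over the 6 libraries. Polyadenylated RNA from whole liver was sequenced from 6 mice of strain C57BL/6, all 6 weeks old, in 3 groups of 2. The controls, wild-type replicates 3 and 6, had an intraperitoneal injection of phosphate-buffered saline (200 µL). Wild-type mice (replicates 1 and 4) and mice of genotype Optn-/- (replicates 4 and 5) received 500 mg per kg of acetaminophen (APAP), and livers were taken at 6 h in every group. Optn encodes optineurin, an autophagy receptor. A group of Optn-/- mice without APAP was not analysed here, so the genotype's own level and its response to APAP cannot be told apart. How the Optn allele was made is not given in the sources used here.

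As background, the liver activates methionine to S-adenosylmethionine, the methyl donor of most methylation reactions, through enzymes encoded by Mat1a and Mat2a. Methyl transfer leaves S-adenosylhomocysteine, which Ahcy splits to homocysteine and adenosine. Homocysteine can be remethylated to methionine, among other routes by Bhmt with betaine as the donor. It can also be passed by Cbs and Cth to cysteine, which feeds glutathione or is oxidized by Cdo1 and Csad toward taurine. Liver is the main site of this chemistry. A reactive metabolite of APAP uses up hepatic glutathione, which is why cysteine supply is of interest in this injury.

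Total counts per library were 59143418 to 77292216. Optn stood at 18.7 and 20.9 FPKM in the controls, 9.17 and 9.19 FPKM in the APAP-treated wild types and 0.316 and 0.457 FPKM in the libraries labelled Optn-/-. The 8 hepatocyte markers summed to between 98060 and 139700 CPM (a count scaled to its library's total), with the lowest sum in Optn-/- replicate 4, where albumin took 6.69% of counts against 8.32% to 9.94% elsewhere. Of 6 adipose markers, Adipoq had 0 to 12 counts and the summed level was 6.82 to 25.99 CPM. Most of that sum was Fabp4, with 4.041 and 6.143 CPM in controls and 11.64 to 25.8 CPM after APAP. Cfd went the other way, with 209 and 51 counts in controls and 0 to 18 after APAP. Summed neutrophil markers (7 genes) were at 2.25 and 5.95 CPM in the controls and 68.8 to 189.8 CPM after APAP. Summed monocyte markers (6 genes) were at 3.74 and 8.25 CPM in the controls and 64.5 to 212.9 CPM after APAP. Most of the monocyte sum after APAP was Cd14 alone (51.39 to 184.7 CPM). Ccr2, Ly6c2, Chil3 and Itgam were also above both controls in every treated library, at lower levels. Fcgr1 in treated wild types (2.213 and 2.941 CPM) overlapped the controls (1.37 and 3.757 CPM). Libraries also differed in RNA of other tissues, in a way that crosses the groups. Skeletal muscle markers (6 genes) summed to 73.9 CPM in control replicate 3 and to 47.5 and 58.0 CPM in wild-type APAP replicates 1 and 4, against at most 0.957 CPM in the other 3 libraries. The goblet cell genes Muc2, Clca1 and Zg16 had 219 to 427 counts each in those other 3 libraries (control replicate 6 and Optn-/- replicates 4 and 5) and at most 4 in the first 3. They were picked from a list of 6 intestine markers, of which Vil1 and Guca2a split the libraries alike. Fabp2 did not, with 50.25 CPM in control replicate 3 and 38.49 CPM in control replicate 6. The whole list thus summed to 50.39 and 50.48 CPM in these 2 controls and did not separate them. Neuron markers (6 genes) summed to 109.2 CPM in wild-type APAP replicate 4, against 5.82 to 12.9 CPM elsewhere. In whole liver, fewer cells of a type and less RNA per cell cannot be told apart. Scaling by total counts in place of TMM (trimmed mean of M values, used for all log2 fold changes below) moved the median gene to -0.19 on the log2 scale in both comparisons with saline. FPKM is likewise per total count, so an FPKM after APAP is to be read against that shift.

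Per unit of length, Gnmt was the most abundant of the 9 genes and Mat1a the next in all 6 libraries. In the controls the order of mean FPKM was Gnmt (894.7 ± 160.4, SD, n = 2), Mat1a (716.7 ± 14.6), Ahcy (682.6 ± 12.7), Cdo1 (365.2 ± 12.4), Bhmt (221.7 ± 11.45), Cth (71.7 ± 3.61), Cbs (27.9 ± 3.22), Csad (19.9 ± 0.257) and Mat2a (13.1 ± 0.917). Among these neighbours, Gnmt and Mat1a lay closest relative to their spread, and no pair overlapped. After APAP the order changed. In the wild types Cdo1 (506 and 488 FPKM) was above Ahcy (486 and 448 FPKM), and Mat2a (22.5 and 21.6 FPKM) was above Csad (10.7 and 10.4 FPKM), without overlap. Bhmt (497 and 355 FPKM) overlapped both Ahcy and Cdo1 there. In the Optn-/- livers Csad (11.0 and 22.9 FPKM) overlapped Mat2a (18.9 and 24.4 FPKM). The plot of FPKM by library shows these levels.

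**Figure D1:**
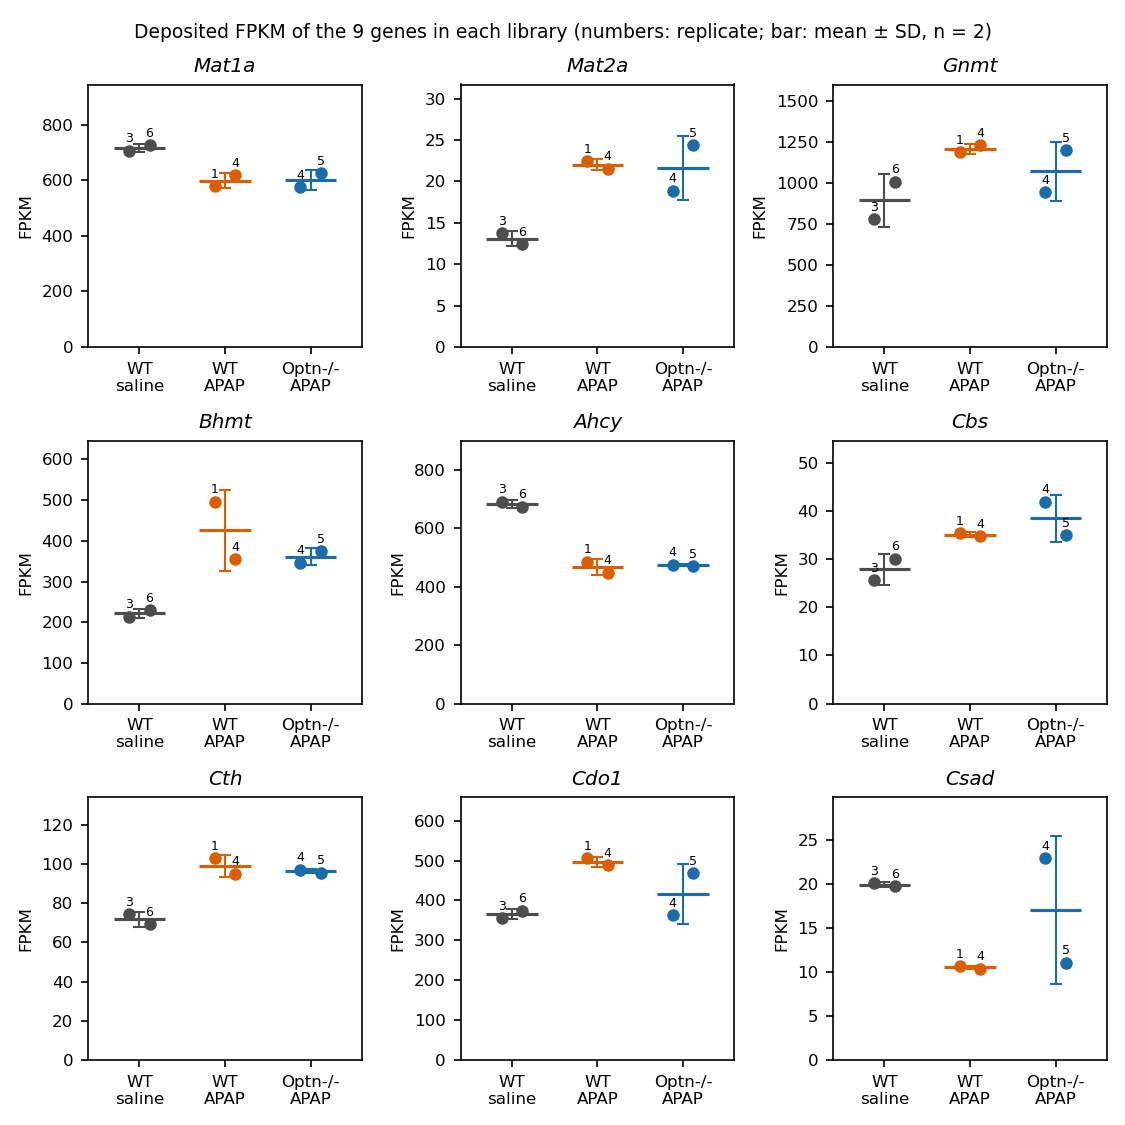
Deposited FPKM of each of the 9 genes (vertical axis from 0, one panel per gene) in the 6 libraries, by group; points are libraries with their replicate number, and bars are the mean ± SD of 2 mice. Mat2a, Bhmt, Cbs and Cth are higher in all 4 APAP-treated livers than in both controls, Ahcy and Mat1a are lower, and the Optn-/- libraries are far apart for Csad.

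In wild-type livers, 4 of the 9 genes were higher 6 h after APAP than after saline: Mat2a, Bhmt, Cth and Cdo1, by 1.58-fold to 2.23-fold. None was lower by the same test, edgeR's quasi-likelihood test with Benjamini-Hochberg adjustment over all genes tested and a threshold of 0.05. Of all genes tested, 8.36% were called higher and 5.92% lower. In TMM-scaled CPM the 2 groups did not overlap for any of the 9 genes, with 6 higher and 3 lower after APAP, beside 32.7% and 30.1% of all genes tested. The median log2 fold change was 0.65 over the 9 genes and 0.03 over all genes tested. Without adjustment, 6 of the 9 were higher and 1 lower at an edgeR p under 0.05, beside 17.3% and 15% of all genes tested. DESeq2 called 6 higher and 1 lower, beside 14.4% and 12.2% of all genes. Limma on log2(FPKM + 0.5) called 3 higher and 1 lower, beside 5.96% and 12.8%. These calls rest on 2 mice a group: edgeR called 0 of the 9 without control replicate 3, without control replicate 6 or without wild-type APAP replicate 1 (4, 6 and 5 higher and 0 lower at an unadjusted p under 0.05), and 2, Mat2a and Bhmt, without wild-type APAP replicate 4. Over all genes tested, the number called higher also fell in these fits, from 976 to 360, 565, 590 and 643 in the same order.

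Mat1a and Mat2a encode methionine adenosyltransferases, which make S-adenosylmethionine. Mat1a is the form of the adult hepatocyte, and Mat2a is the form of most other cells and of growing liver. Mat1a (GRCm38 chromosome 14, 41105035 to 41124412, plus strand) had 706 and 727 FPKM in controls and 580 and 618 FPKM in APAP-treated wild types. Its FPKM was thus lower in both treated mice, but the log2 fold change after TMM scaling was -0.05 ± 0.12 (SE) by edgeR (adjusted p = 0.821), with a 95% interval from -0.35 to 0.25. Mat2a (chromosome 6, 72432799 to 72439558, minus strand) had 13.7 and 12.4 FPKM in controls and 22.5 and 21.6 FPKM in APAP-treated wild types. Both treated mice were above both controls, and the rise was 1.95-fold (log2 0.96 ± 0.16, SE, edgeR adjusted p = 0.0164). The leukocyte marker sums given above moved with it, and their part in the rise of Mat2a was not tested. Particl, on the opposite strand, shares 508 bases with Mat2a and had 31 to 102 counts per library.

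The balance of the 2 forms is usually read as a ratio. Mat2a was at 1.94% and 1.71% of the Mat1a FPKM in controls, 3.88% and 3.49% in APAP-treated wild types, and 3.28% and 3.89% in Optn-/- mice. All 4 treated livers were thus above both controls (means 1.83% ± 0.165, 3.68% ± 0.274 and 3.59% ± 0.433, SD, n = 2). Mat1a remained the more abundant form in every library. The ratio itself was not tested. Mat2b, which encodes the regulatory subunit of the Mat2a enzyme, differed by -0.14 ± 0.14 on the log2 scale in wild types (edgeR adjusted p = 0.546).

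The 250 bases before the annotated start are shown for Mat2a, the gene of this step that rose, and for Gnmt, the most abundant of the 9 genes, to set their composition side by side. They are the RefSeq windows of GRCm38.p6, chr6:72439557-72439806 and chr17:46729166-46729415, both on the minus strand, written 5′ to 3′ along the gene. Capitals mark matches on either strand to any of the motifs searched.
Mat2a: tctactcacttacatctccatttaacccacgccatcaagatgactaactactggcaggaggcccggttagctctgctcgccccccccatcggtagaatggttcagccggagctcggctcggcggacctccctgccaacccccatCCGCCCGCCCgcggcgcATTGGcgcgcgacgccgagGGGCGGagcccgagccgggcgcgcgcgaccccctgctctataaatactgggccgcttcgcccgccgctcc
Gnmt: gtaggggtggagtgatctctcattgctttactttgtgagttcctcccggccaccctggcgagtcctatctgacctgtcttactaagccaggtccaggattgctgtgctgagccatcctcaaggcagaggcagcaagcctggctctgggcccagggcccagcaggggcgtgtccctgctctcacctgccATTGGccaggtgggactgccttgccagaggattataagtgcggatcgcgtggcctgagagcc
The GC content was 67.6% in the Mat2a window and 60.4% in that of Gnmt, against a median of 52.4% over 32851 promoter windows. Matches were sought, on both strands and allowing overlaps, for the amino acid response element TGATGCAA and the antioxidant response element core TGACNNNGC. The other motifs were the E-box (CACGTG, in 6.02% of all windows), the GC box spelled GGGCGG, the CCAAT box of that spelling, and the AP-1 motif (TGA, any base, and then the letters TCA, in 6.75% of all windows). The Mat2a window held 3 GC boxes, 2 of them overlapping, and a CCAAT box whose first base is 89 bases before the start (position -89). The Gnmt window held a CCAAT box (position -62) and no GC box. Of all windows of this length, 33.8% held a CCAAT box and 32.7% a GC box. RefSeq windows matched 6 of the 9 genes (Mat2a, Gnmt, Bhmt, Ahcy, Cbs and Csad), and none of those held TGATGCAA, found in 0.791% of all windows, or TGACNNNGC, found in 10.2%. No match means only that these letters are not in the window.

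Gnmt encodes glycine N-methyltransferase, which consumes surplus S-adenosylmethionine by methylating glycine. Gnmt (chromosome 17, 46725664 to 46729168, minus strand) had 781 and 1008 FPKM in controls and 1186 and 1231 FPKM in APAP-treated wild types. The treated mice were above both controls, which themselves lay far apart. The log2 fold change was 0.65 ± 0.18 and did not pass the threshold (edgeR adjusted p = 0.0629), while DESeq2 gave an adjusted p of 0.00543.

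Bhmt, which encodes betaine-homocysteine methyltransferase, showed the largest fold change of the 9 genes in wild types, although without APAP replicate 1 it was 0.86 on the log2 scale against 0.90 for Mat2a. Bhmt (chromosome 13, 93616675 to 93637961, minus strand) had 214 and 230 FPKM in controls and 497 and 355 FPKM in APAP-treated wild types. The treated mice differed between themselves but both were above both controls, a 2.23-fold rise (log2 1.16 ± 0.20, edgeR adjusted p = 0.0195). Bhmt2, further along the same chromosome and strand (93655720 to 93674302), encodes a homocysteine methyltransferase that uses S-methylmethionine. Bhmt2 had 72.7 and 75.1 FPKM in controls and 46.9 and 48.6 FPKM in treated wild types. Its log2 fold change had the opposite sign to that of Bhmt, -0.42 ± 0.14, and did not pass the threshold (edgeR adjusted p = 0.0929). The difference between the 2 genes was not tested.

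Bhmt has near copies with which reads could be shared, so its value is uncertain to that extent. Of the 2391 windows of 100 bases in its annotated transcripts, 41.1% also occur in Gm5096 and 20.2% in Bhmt-ps1, whereas Bhmt and Bhmt2 transcripts were 73.6% identical where they align. Gm5096 had 81.2 and 71.9 FPKM in controls and 189 and 139 FPKM in treated wild types, rising with Bhmt (log2 1.31 ± 0.20, edgeR adjusted p = 0.0140). Bhmt-ps1 had 4.68 and 11.8 FPKM in controls and 5.27 and 6.27 FPKM in treated wild types. Gm15622, annotated within Bhmt on the opposite strand, had 0 to 64 counts per library. When counts of Bhmt, Gm5096 and Bhmt-ps1 were summed before the test, a step added after seeing the data, the rise was 1.17 ± 0.20 on the log2 scale (edgeR adjusted p = 0.0184).

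Ahcy encodes S-adenosylhomocysteine hydrolase, which clears the product that inhibits methyltransferases. Ahcy (chromosome 2, 155059310 to 155074497, minus strand) had 692 and 674 FPKM in controls and 486 and 448 FPKM in APAP-treated wild types. Both treated mice were below both controls. On the TMM scale the log2 fold change was -0.33 ± 0.13 and did not pass the threshold (edgeR adjusted p = 0.143). It passed by DESeq2 (-0.35, adjusted p = 0.0240), by limma on log2(FPKM + 0.5) (-0.55, adjusted p = 0.0275) and by edgeR with total count scaling (-0.56, adjusted p = 0.0260), of which the last 2 carry the shift of the median gene given above. Ahcy shares 65.6% of its 2510 windows of 100 bases with Gm4737 (chromosome 16, 46152985 to 46155077), whose transcript is 99.7% identical over 2086 aligned positions. Gm9826, a pseudogene, holds 22.9% of those windows, whereas Gm4737 is annotated as protein-coding. Gm4737 had 235 and 214 FPKM in controls and 199 and 198 FPKM in treated wild types, a log2 difference of 0.03 ± 0.13 (edgeR adjusted p = 0.905), and Ahcy summed with both copies gave -0.26 (edgeR adjusted p = 0.236). How the deposited counts divided reads between Ahcy and these copies is not given in the sources used here. Gm45609, on the opposite strand, shares 317 bases with Ahcy and had 0 to 96 counts per library.

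Cbs and Cth encode cystathionine beta-synthase and cystathionine gamma-lyase, the enzymes that carry sulfur from homocysteine to cysteine. Cbs (chromosome 17, 31608894 to 31637238, minus strand) had 25.6 and 30.2 FPKM in controls and 35.5 and 34.9 FPKM in APAP-treated wild types. The groups did not overlap, and the log2 fold change of 0.55 ± 0.16 did not pass the threshold (edgeR adjusted p = 0.0712, DESeq2 adjusted p = 0.0124). Cth (chromosome 3, 157894248 to 157925077, minus strand) had 74.2 and 69.1 FPKM in controls and 103 and 95.01 FPKM in treated wild types. Both treated mice were above both controls, a 1.60-fold rise (log2 0.68 ± 0.13, edgeR adjusted p = 0.0243). Gm43314, annotated within Cth on the same strand, had 247 to 550 counts per library.

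Cdo1 and Csad act in sequence on cysteine. Cdo1, cysteine dioxygenase, oxidizes cysteine to cysteine sulfinate, and Csad decarboxylates that product on the way to taurine. Cdo1 (chromosome 18, 46713193 to 46728395, minus strand) had 356 and 374 FPKM in controls and 506 and 488 FPKM in APAP-treated wild types. Both treated mice were above both controls, a 1.58-fold rise (log2 0.66 ± 0.15, edgeR adjusted p = 0.0405). Cdo1 was called in 7 of the 17 alternatives tried. Beside the fits without a control or a treated wild type, the call was lost with total count scaling (0.44, edgeR adjusted p = 0.0997), by limma on log2(FPKM + 0.5) (adjusted p = 0.0972), with no FPKM filter (0.60, edgeR adjusted p = 0.0708) and with library kind, described below, as a term (0.68, edgeR adjusted p = 0.137).

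Csad (chromosome 15, 102176999 to 102204253, minus strand) had 20.1 and 19.8 FPKM in controls and 10.7 and 10.4 FPKM in APAP-treated wild types. The 2 groups did not overlap and were each narrow. In the model of all 6 libraries the log2 fold change of -0.71 ± 0.34 did not pass the threshold (edgeR adjusted p = 0.209). The spread in that model includes the Optn-/- group, where Csad had 22.9 FPKM in replicate 4 and 11.0 FPKM in replicate 5. Fitted on the 4 wild-type libraries alone, Csad was lower after APAP (-0.73, edgeR adjusted p = 0.0309), as it was without Optn-/- replicate 4 (adjusted p = 0.0328) or replicate 5 (adjusted p = 0.0312). Csad was at 5.64% and 5.28% of the Cdo1 FPKM in controls, at 2.11% and 2.12% in APAP-treated wild types, and at 6.33% and 2.36% in Optn-/- replicates 4 and 5. Replicate 4 thus lay above the controls on this ratio and replicate 5 near the treated wild types, as the plot of both ratios shows. Zfp740 lies on the opposite strand, shares 1005 bases with Csad and had 188 to 1604 counts, and whether the counts used strand is not given in the sources used here.

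**Figure D2:**
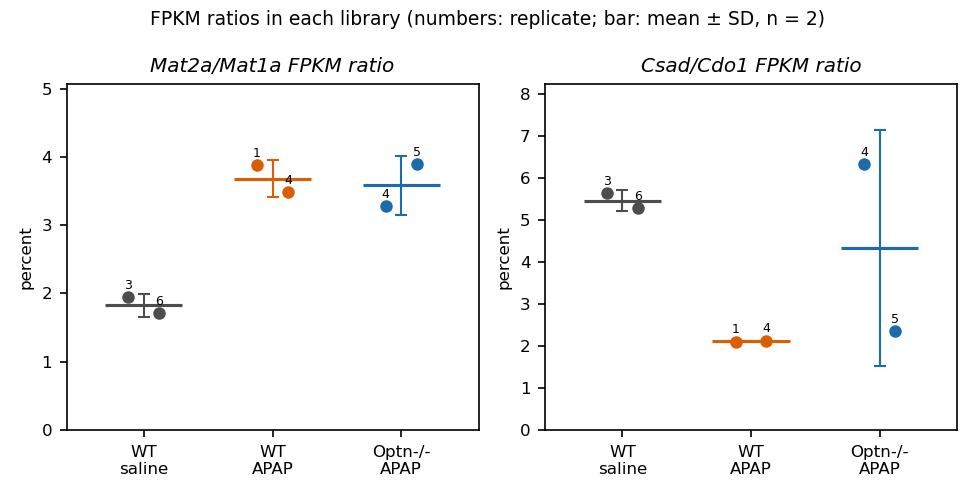
FPKM of Mat2a as a percentage of Mat1a (left) and of Csad as a percentage of Cdo1 (right), each axis from 0; points are libraries with their replicate number and bars the mean ± SD of 2 mice. The Mat2a to Mat1a ratio is above both controls in all 4 treated livers, and the Csad to Cdo1 ratio is 6.33% in Optn-/- replicate 4 against 2.36% in replicate 5.

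Against the same 2 saline controls, the Optn-/- livers after APAP also had 4 of the 9 genes higher, Mat2a, Bhmt, Cbs and Cth, and none lower, by edgeR. Of all genes tested, 12.2% were called higher and 8.05% lower. In TMM-scaled CPM 6 of the 9 were above and 2 below both controls, without overlap, beside 33.7% and 32.7% of all genes tested. Because the controls are shared with the wild-type comparison, the 2 sets of calls are not independent, and genotype and APAP cannot be told apart in this one. Without adjustment 5 genes were higher and 1 lower at an edgeR p under 0.05, beside 19.5% and 16.4% of all genes. DESeq2 called 4 higher and 1 lower, beside 17% and 14%, and limma 3 higher and 1 lower, beside 9.87% and 15.8%. By edgeR 0 of the 9 passed without control replicate 3, control replicate 6 or Optn-/- replicate 5 (4, 5 and 5 higher and 0 lower at an unadjusted p under 0.05), and without Optn-/- replicate 4 only Mat2a was higher and Csad was lower. Over all genes tested, the number called higher fell from 1426 to 680, 916, 534 and 880 in these fits, in the same order.

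Among the genes of S-adenosylmethionine synthesis, Mat2a in the Optn-/- livers (18.9 and 24.4 FPKM) was above both controls, by 1.87-fold (log2 0.90 ± 0.16, edgeR adjusted p = 0.0146). Mat1a (576 and 627 FPKM) differed by -0.07 ± 0.12 on the log2 scale (edgeR adjusted p = 0.706). Gnmt (944 and 1198 FPKM) overlapped the controls in FPKM, and its log2 fold change of 0.44 ± 0.18 did not pass (edgeR adjusted p = 0.133).

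Bhmt (346 and 375 FPKM) was 1.84-fold higher than in controls (log2 0.88 ± 0.20, edgeR adjusted p = 0.0313). Bhmt2 (52.9 and 44.9 FPKM) again had the opposite sign, -0.41 ± 0.14 (edgeR adjusted p = 0.0850). Ahcy (476 and 471 FPKM) was below both controls, with a log2 fold change of -0.35 ± 0.13 that did not pass (edgeR adjusted p = 0.119) but did by DESeq2 (adjusted p = 0.0188).

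In transsulfuration, Cbs (42.0 and 35.01 FPKM) was 1.57-fold higher than in controls (log2 0.65 ± 0.16, edgeR adjusted p = 0.0365) and Cth (97.0 and 95.5 FPKM) 1.52-fold higher (log2 0.61 ± 0.13, edgeR adjusted p = 0.0253). The Cbs call held in 4 of the 17 alternatives. It was lost in each of the 6 fits without 1 library, by limma with every pseudocount, with library kind as a term, with no FPKM filter (0.59, edgeR adjusted p = 0.0659), with total count scaling (0.46, edgeR adjusted p = 0.0697) and with only the groups compared in the model (edgeR adjusted p = 0.0586). Cdo1 (362 and 469 FPKM) had its lower replicate within the range of the controls in FPKM, and the log2 fold change of 0.36 ± 0.15 did not pass (edgeR adjusted p = 0.145). For Csad the group difference was -0.04 ± 0.34 (edgeR adjusted p = 0.944). It was -0.69 without replicate 4, which passed (adjusted p = 0.0483), and 0.39 without replicate 5, so that a single library set its sign. Replicate 4 was also the library with the lowest summed hepatocyte markers and albumin share, and with the highest summed Kupffer cell markers (6 genes, 614 CPM against 351.5 to 484 CPM elsewhere). Albumin made up most of that hepatocyte sum. Alb, Apoa1 and Ttr were each lowest in replicate 4 and the other hepatocyte markers were not. Hnf4a (701.2 CPM) was above both controls (488.2 and 618.3 CPM). Of the Kupffer cell markers, all but C6 were highest in replicate 4, and C6 was higher in control replicate 3 (305.4 against 246.6 CPM). The part of these marker levels in the Csad value was not tested.

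**Figure D3:**
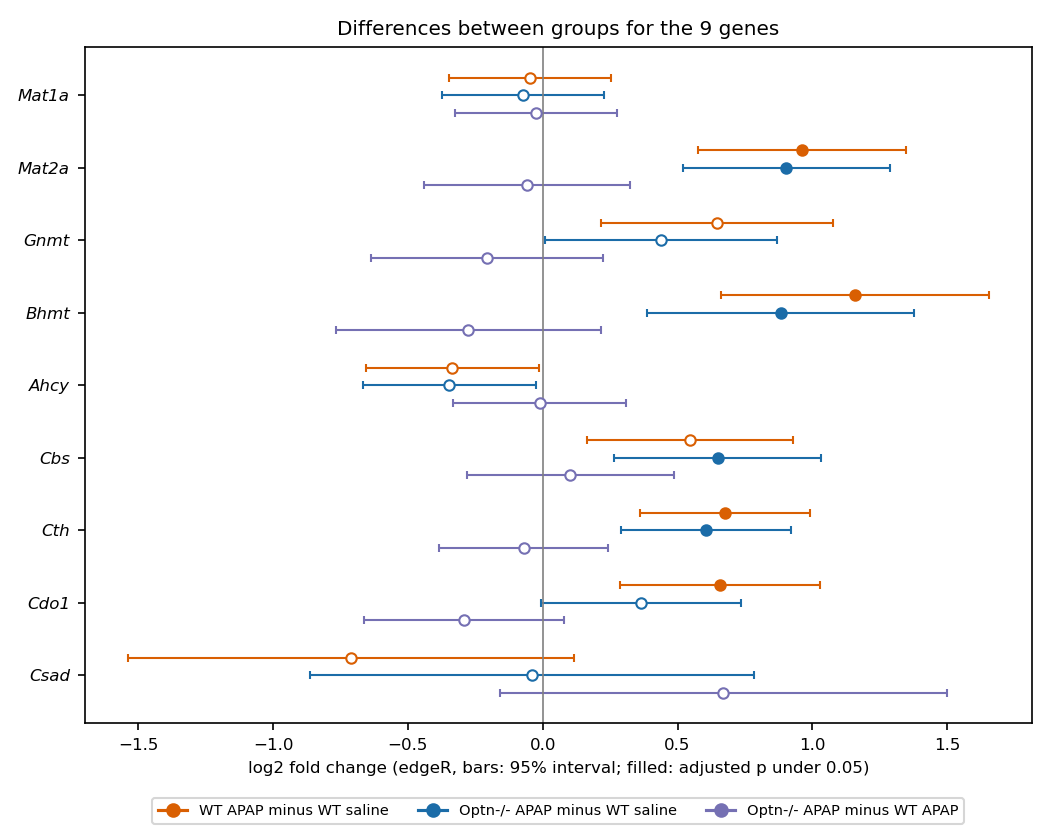
Log2 fold changes from edgeR (horizontal axis) for the 9 genes in 3 comparisons, with 95% intervals as bars; filled points have an adjusted p under 0.05. Mat2a, Bhmt and Cth are filled in both comparisons with saline, Cdo1 in the wild-type and Cbs in the Optn-/- comparison alone, and no gene is filled between genotypes.

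Whether the genes differ between Optn-/- and wild-type livers, both after APAP, is the comparison of genotypes under the same treatment. By edgeR 0 of the 9 genes passed in either direction, against 0.0514% of all genes tested called higher and 0.0514% called lower. At an unadjusted p under 0.05 there were also 0, beside 4.92% higher and 3.85% lower of all genes. DESeq2 and limma each called 0, beside 1.4% and 0.18% of all genes higher and 1.03% and 0.0514% lower. In TMM-scaled CPM the groups did not overlap for 2 genes, Gnmt and Cdo1, both lower, and for 0 higher, beside 18.9% and 20.8% of all genes tested. The median log2 fold change was -0.06 over the 9 genes and -0.00 over all genes. The calls in the comparisons with saline differ for Cbs and Cdo1, but neither gene passed the direct test between genotypes. Cbs differed by 0.10 ± 0.16 (edgeR adjusted p = 0.883), and Cdo1 by -0.29 ± 0.15 (95% interval -0.66 to 0.08, edgeR adjusted p = 0.642).

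The precision of that comparison varied by gene. It was best for Mat1a, whose log2 difference of -0.02 had a 95% interval from -0.33 to 0.28, and for Cth (-0.07, interval -0.39 to 0.24) and Ahcy (-0.01, interval -0.33 to 0.31). Mat2a differed by -0.06 (interval -0.44 to 0.32), Bhmt by -0.28 (interval -0.77 to 0.21) and Gnmt by -0.21 (interval -0.64 to 0.22). Csad had the widest interval, from -0.16 to 1.50 around 0.67. Wild-type APAP libraries were both of the muscle-marker kind and Optn-/- libraries both of the goblet-cell kind, so within this comparison those library kinds and genotype cannot be told apart. With the library kind as a term, which the 2 controls alone can inform, edgeR called 0 of the 9 in all 3 comparisons. For the comparisons with saline, 6 and 4 were higher and 0 lower at an unadjusted p under 0.05 (share of all genes not computed). Calls over all 11677 genes tested also fell with that term, from 976 to 572 higher and from 691 to 240 lower in wild types. In Optn-/- mice against saline they fell from 1426 to 670 higher and from 940 to 290 lower. The fitted values for the genes called stayed at 0.61 to 1.20 in wild types and 0.55 to 0.99 in Optn-/- mice.

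The surrounding pathway was described with 69 further genes in 8 lists, of which 61 passed the filter. In wild types after APAP, 10 of the 61 were higher and 8 lower by edgeR, beside 8.36% and 5.92% of all genes tested, and their median log2 fold change was -0.12. Those numbers fell to 5 higher and 3 lower without control replicate 3, and were 7 and 5 without control replicate 6 or without wild-type APAP replicate 1, 8 and 4 without wild-type APAP replicate 4, and 7 and 5 with library kind as a term. Over all genes, scaling by total counts moved the share of calls that were higher from 58.5% to 32.9%, and from 60.3% to 39.2% in the Optn-/- comparison with saline. In these lists it gave 17 lower in wild types, where lower calls over all 11677 genes tested rose from 691 to 1470.

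The remethylation list (Mtr, Mtrr, Bhmt2, Mat2b, Ahcyl1 and others) had 0 of 8 called by edgeR in wild types, with 2 lower at an unadjusted p under 0.05 and 2 lower by DESeq2 and by limma.

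Of 6 genes that supply or return methyl donors, 2 were lower and none was higher in wild types. Chdh, choline dehydrogenase, which makes the betaine that Bhmt uses, had 23.2 and 22.1 FPKM in controls and 6.61 and 7.95 FPKM after APAP. Both treated mice were far below both controls, a 2.69-fold fall (log2 -1.43 ± 0.15, edgeR adjusted p = 0.00572). Shmt1, the cytosolic serine hydroxymethyltransferase, had 40.6 and 43.1 FPKM in controls and 20.7 and 18.4 FPKM after APAP (log2 -0.88 ± 0.14, edgeR adjusted p = 0.0155).

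Of 9 genes listed as small-molecule methyltransferases, 1 was lower: Icmt, whose known substrates are prenylated proteins rather than small molecules (log2 -0.61 ± 0.12, edgeR adjusted p = 0.0280). Nnmt, nicotinamide N-methyltransferase, differed by 0.31 ± 0.15 on the log2 scale (edgeR adjusted p = 0.209). Pemt, which makes phosphatidylcholine and is a large consumer of S-adenosylmethionine in liver, had 0.05 ± 0.17 (edgeR adjusted p = 0.859). For adenosine removal, Adk, adenosine kinase, had -0.16 ± 0.15 (edgeR adjusted p = 0.529).

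Among 9 genes of methionine salvage and polyamines, 1 was higher and 2 were lower. Sat1, which acetylates spermidine and spermine for breakdown or export, had 11.0 and 9.79 FPKM in controls and 49.5 and 42.0 FPKM after APAP. The groups lay far apart, a 5.10-fold rise (log2 2.35 ± 0.16, edgeR adjusted p = 0.00181). Srm, spermidine synthase, had 24.5 and 33.7 FPKM in controls and 10.8 and 11.6 FPKM after APAP, a fall (log2 -1.17 ± 0.17, edgeR adjusted p = 0.0133). Mri1, a methionine salvage isomerase, was lower with an edgeR adjusted p of 0.04995, at the edge of the threshold.

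Of 11 genes of taurine and sulfur oxidation, 2 were higher and 2 lower. Fmo1, a flavin monooxygenase that can oxidize hypotaurine to taurine, was lower (log2 -1.16 ± 0.13, edgeR adjusted p = 0.00609), as was Slc6a6, the taurine transporter (log2 -0.94 ± 0.13, edgeR adjusted p = 0.0105). Slc6a6 had 10.5 and 10.0 FPKM in controls and 4.62 and 4.61 FPKM after APAP. Got1, the cytosolic aspartate aminotransferase, was higher (log2 1.72 ± 0.26, edgeR adjusted p = 0.0143), with 38.6 and 46.8 FPKM in controls and 124 and 118 FPKM after APAP. The other gene called higher was Ethe1, a mitochondrial persulfide dioxygenase, named here after its value was seen (log2 0.85 ± 0.17, edgeR adjusted p = 0.0265).

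Of 12 genes of cysteine uptake and glutathione turnover, 4 were higher and 1 lower. Slc3a2, the heavy chain of several amino acid transporters, had 9.74 and 9.53 FPKM in controls and 19.6 and 23.3 FPKM after APAP (log2 1.36 ± 0.13, edgeR adjusted p = 0.00422). Gclc, the catalytic subunit of the rate-limiting enzyme of glutathione synthesis, had 35.3 and 34.6 FPKM in controls and 60.5 and 134 FPKM after APAP. Its treated mice were both higher but unequal (log2 1.67 ± 0.39, edgeR adjusted p = 0.0414). Slc1a4, a neutral amino acid transporter, was higher from a low level (0.773 and 0.969 to 2.27 and 2.42 FPKM, log2 1.64 ± 0.23, edgeR adjusted p = 0.0111).

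Chac1 and Chac2 both encode gamma-glutamylcyclotransferases that degrade glutathione, and they moved in opposite directions. Chac2 had 14.0 and 10.4 FPKM in controls and 3.74 and 3.58 FPKM after APAP (log2 -1.53 ± 0.22, edgeR adjusted p = 0.0113). Chac1, named after its value was seen, had 0.616 and 5.19 FPKM in controls, which differ from each other, and 63.7 and 73.6 FPKM after APAP (log2 4.77 ± 0.94, edgeR adjusted p = 0.0264). Slc7a11, the cystine transporter, did not pass the filter. It had 10 and 0 counts in controls, 107 and 195 in APAP-treated wild types and 281 and 194 in Optn-/- mice, so all 4 treated libraries were above both controls at a low level.

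Of 5 methionine transporter genes, 3 were higher and none lower in wild types, and the list's median log2 fold change was 1.94. Slc38a2, a sodium-coupled neutral amino acid transporter, had 10.9 and 13.4 FPKM in controls and 44.3 and 36.0 FPKM after APAP (log2 1.94 ± 0.18, edgeR adjusted p = 0.00390). Slc43a1 had 1.55 and 1.17 FPKM in controls and 4.86 and 4.60 FPKM after APAP (log2 2.01 ± 0.22, edgeR adjusted p = 0.00585). Slc7a5, the light chain that pairs with Slc3a2, had 0.667 and 0.955 FPKM in controls and 2.54 and 4.69 FPKM after APAP (log2 2.35 ± 0.36, edgeR adjusted p = 0.0139). The list also had 3 higher and 0 lower with library kind as a term. Over all genes tested, 8.36% were higher and 5.92% lower in the main fit, and 572 and 240 of 11677 with that term. The list was not counted in the fits without either control or without wild-type APAP replicate 1.

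**Figure D4:**
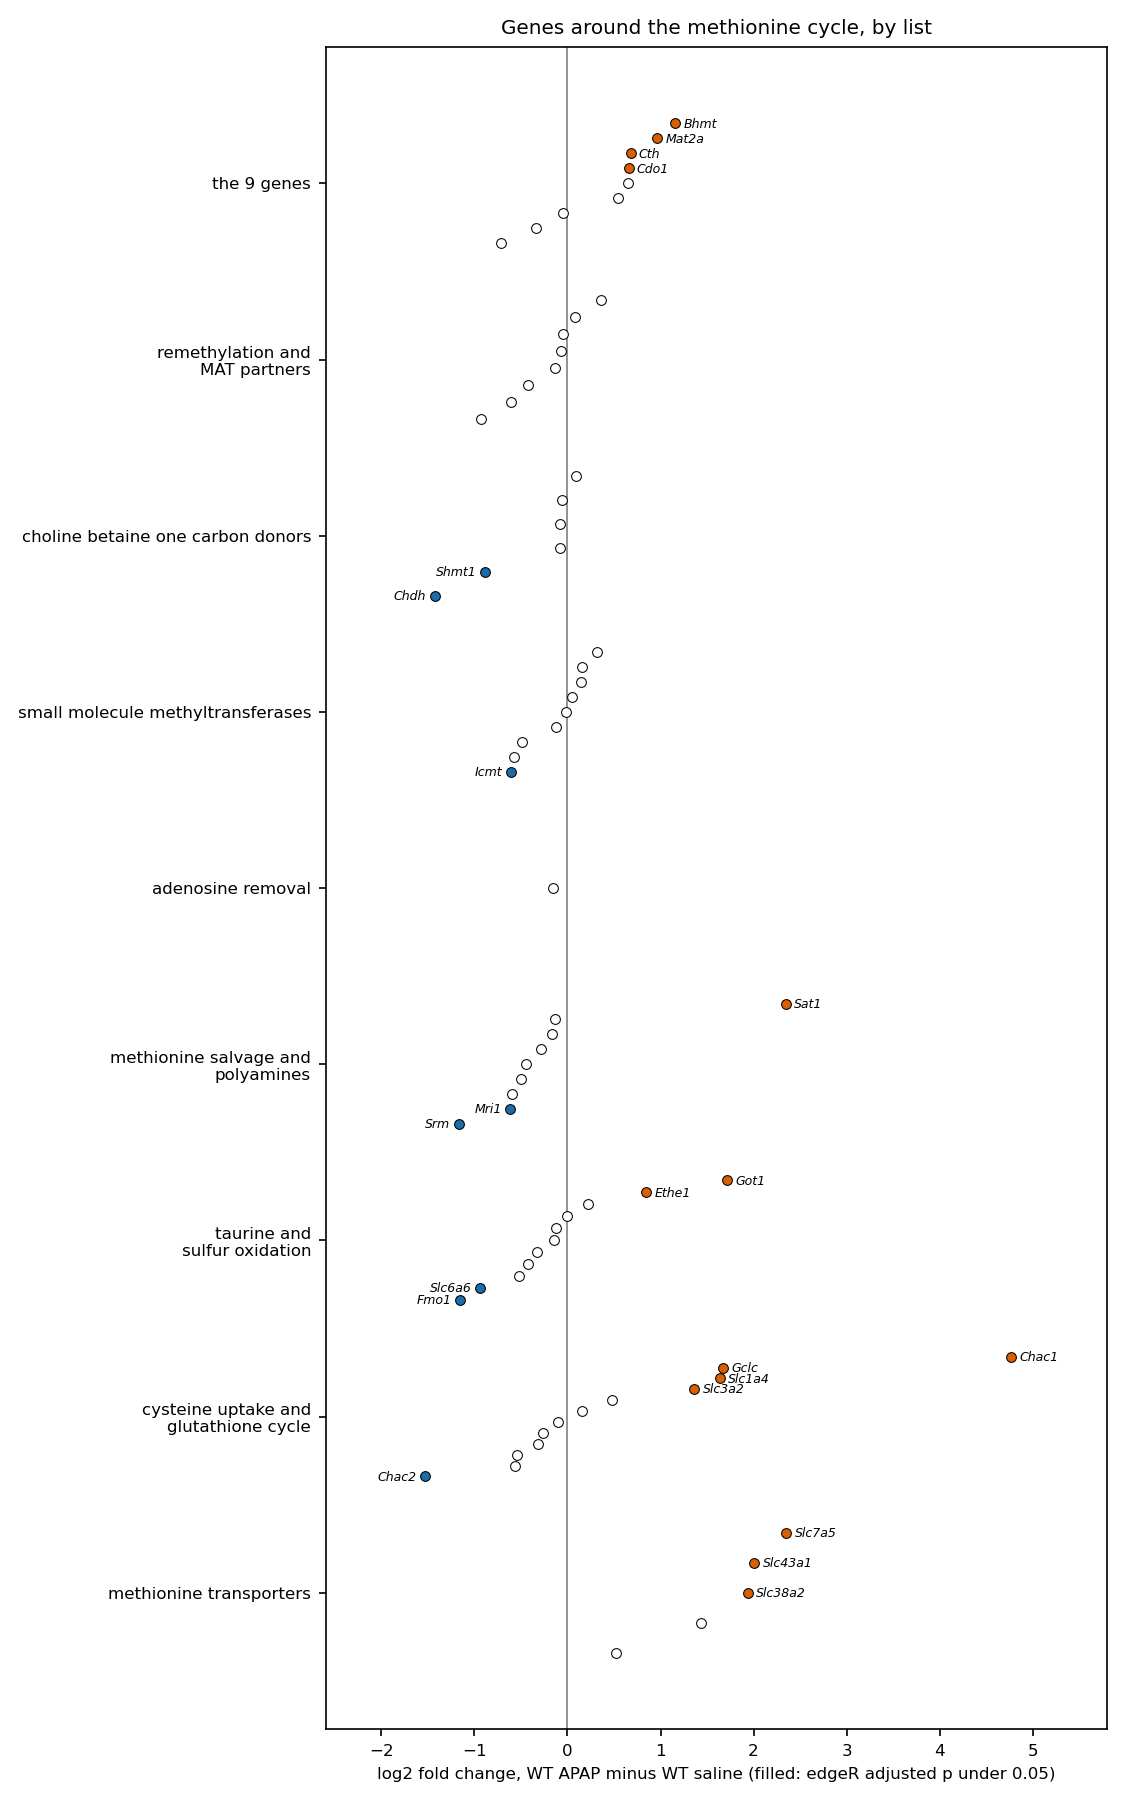
Log2 fold change after APAP against saline in wild types (horizontal axis) for the 9 genes and for the 61 tested genes of 8 lists, one band per list; filled points have an edgeR adjusted p under 0.05, orange for higher and blue for lower. The 3 filled transporters lie between 1.94 and 2.35, and no gene of the remethylation list is filled.

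In Optn-/- livers against saline, 8 of the 61 genes were higher and 15 lower by edgeR, beside 12.2% and 8.05% of all genes tested. The lower calls were 4 of 9 methyltransferases, 5 of 11 genes of taurine and sulfur oxidation, 2 of 6 donor genes, 2 of 9 of salvage and polyamines, 1 of 12 of cysteine and glutathione and 1 of 8 of remethylation. The number lower fell to 5 without control replicate 3 and to 7 without Optn-/- replicate 5. Chdh (7.44 and 6.34 FPKM) and Sat1 (59.6 and 62.1 FPKM) had log2 fold changes of -1.53 and 2.73 there (edgeR adjusted p = 0.00341 and 9.54e-04). Between genotypes after APAP, 0 of the 61 passed by edgeR, with 2 higher and 8 lower at an unadjusted p under 0.05, beside 4.92% and 3.85% of all genes tested. DESeq2 called 4 of them lower, beside 1.03% of all genes, and limma 0.

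Profiles over the 6 libraries most like those of the 2 genes that ranged over at least 1 on the log2(FPKM + 0.5) scale were sought among all genes tested. The nearest to Bhmt were Mkrn1, at a root mean square difference of 0.0905, and Gm15883, at 0.0941. The nearest to Csad were Gm30025 (0.117) and Cbr1 (0.168). These are descriptions of likeness over 6 libraries.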

How the data were processed

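Counts per gene and library, with no normalization, and FPKM values were taken from 1 table deposited by the authors, per the file headers. Each column carries the library name found in 1 sample title. A count of 0 is listed by the authors as 0.0001 FPKM. Bowtie 0.12.2 and the build mm8 are named per the submitters' processing notes. Table coordinates equal those of GENCODE M21 (GRCm38) for 51954 of 55144 shared genes (94.2%), so they are given as GRCm38. The counter and strand use: not given in the sources used here. Per the labels' protocols the RNA came from an adipose type, whereas the tissue label is liver.

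Groups came from sample titles. Counts were tested with edgeR 4.0.16 (R 4.3.3, TMM, quasi-likelihood, 1 model of 3 group means over 6 libraries), for genes averaging at least 0.5 FPKM, with Benjamini-Hochberg adjustment at 0.05. The common biological coefficient of variation reached 0.277 (3 residual degrees of freedom). Alternatives were DESeq2 1.42.0, limma 3.58.1 on log2(FPKM + 0.5, 0.1 or 1), RLE size factors, total count scaling, no filter, a mean of at least 5 FPKM, only the groups compared, library kind (muscle or intestine markers, whichever summed CPM was larger) as a term, each library left out, and near copies summed. The scripts were tested on simulated data with a smaller spread between replicates than was fitted here, which gives no error rates for these data. Replicate pairs differed by more than sampling noise (mean chi-square per gene 85.2 to 204.2). P-values of the main model set a difference against a spread estimated from the 2 mice of all 3 groups together, with information shared between genes.

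The 9 genes, the lists and the marker lists were chosen with earlier results of these data known. Named were the 9 genes, further genes in every case (Slc7a11, Gclc, Nnmt, Pemt, Bhmt2, Mat2b, Adk; another is not reported here), up to 3 called genes of smallest p per list in the wild-type and the genotype comparison, near copies and overlapping genes, and for each of the 9 that ranged over at least 1 (log2) the 2 nearest profiles. Other marker lists summed to 1.94 to 4.21 CPM (lymphocyte), 75.8 to 137.2 (endothelial), 113.1 to 307.2 (stellate), 31.5 to 137.4 (cholangiocyte), 25.0 to 50.5 (intestine, including genes liver also expresses), 0 to 0.0563 (kidney) and 11.1 to 19.4 (pancreas). Sequences are from RefSeq windows of GRCm38.p6, and shared windows of 100 bases from GENCODE M21 transcripts with Biopython 1.88 alignments.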

Additional observations from a re-analysis of the deposited data

How the results depend on the processing

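No paired analysis was possible because the groups compared share at most 1 replicate number (4, in wild-type APAP and Optn-/- mice). In wild types against saline, none of the 9 genes changed direction under any of the 17 alternatives. Leaving out 1 library gave 0 to 4 of the 9 higher and 0 to 1 lower in wild types, and 0 to 3 higher and 0 to 1 lower in Optn-/- mice against saline. For the 61 pathway genes it gave 5 to 8 higher and 3 to 9 lower in wild types, and 4 to 7 higher and 5 to 10 lower in Optn-/- mice. Library kind as a term gave 0 of the 9 higher in both comparisons with saline and 5 pathway genes lower in each. Of all 11677 genes tested, that term gave 572 higher and 240 lower in wild types, and 670 and 290 in Optn-/- mice against saline. In wild types 1 of the 9 was lower by DESeq2, by limma with any of the 3 pseudocounts, with total count scaling (Ahcy in each) and with only the groups compared (Csad). Against saline in Optn-/- mice 1 was lower by DESeq2, by limma with each pseudocount and with total count scaling, and 2 were higher with no FPKM filter. Pathway genes lower in wild types were 15 by DESeq2, 19 by limma with each pseudocount and 17 with total count scaling. Lower calls over all 11677 genes tested were 691 in the main fit, 1419 by DESeq2, 1470 to 1535 by limma and 1470 with total count scaling. In Optn-/- mice against saline, pathway genes lower were 25 by limma with each pseudocount and 25 with total count scaling. Over all genes tested, lower calls there were 940 in the main fit, 1773 to 1881 by limma and 1756 with total count scaling. Between genotypes, 4 pathway genes were lower by DESeq2, beside 1.03% of all genes.

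All reversals of sign but 1 concerned log2 differences between genotypes, none of them called in any alternative. Mat1a became 0.00483 (limma, pseudocounts 0.5 and 0.1), 0.00482 (limma, 1), 0.00742 (total count scaling), 0.0165 (mean of at least 5 FPKM) and 0.0126 (without Optn-/- replicate 4). Ahcy became 0.0203 (limma, each pseudocount), 0.0215 (total count scaling), 0.0297 (mean of at least 5 FPKM), 0.0559 (library kind), 0.0798 (without wild-type APAP replicate 1) and 0.0199 (without Optn-/- replicate 5). Mat2a became 0.114 (library kind), 0.00256 (without wild-type APAP replicate 1) and 0.0933 (without Optn-/- replicate 4). Cbs became -0.103 (library kind) and -0.0613 (without Optn-/- replicate 4), Cth 0.0613 (library kind) and 0.0197 (without wild-type APAP replicate 1), and Bhmt 0.0214 (without wild-type APAP replicate 1). Against saline, Csad in Optn-/- mice became 0.389 without replicate 5. Over the fits that leave out 1 library, these differences ranged from -0.0620 to 0.0126 (Mat1a), -0.228 to 0.0933 (Mat2a), -0.522 to 0.0214 (Bhmt), -0.0977 to 0.0798 (Ahcy), -0.0613 to 0.251 (Cbs), -0.156 to 0.0197 (Cth) and, for Csad against saline, -0.694 to 0.389. The cause was not tested. Single-library fits assume that the lone mouse of a group varies like the others. The 9 genes had at least 10.4 FPKM in every library.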
